A study of Rattus norvegicus with 9 samples.

Results

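Ucp1, Cidea, Cox8b and Adrb3 are genes of heat-producing brown fat, and their log ratios are described here in the thoracic aortas of rats whose mothers were diabetic or not diabetic. Each of the 4 genes had 1 probe, and together they make up 4 of 9653 genes with a single symbol on the array. They were chosen by their log ratios in an earlier reading of the same arrays, so their values are given as a description and no test is made on them. Each of the 9 two-colour Agilent arrays carried total RNA of the thoracic aorta of 1 offspring of a diabetic mother (DMO in the labels) and 1 offspring of a control mother (CMO). The arrays came from 5 animal pairs, named here by the DMO animal: DMO 193 with CMO 189, 194 with 190, 197 with 191, 199 with 192 and 220 with 216. Pairs 193, 197, 199 and 220 each had 2 arrays with the dyes exchanged, and pair 194 had 1, on which the DMO animal carried Cy3. Per the labels, the concentrations of the 2 RNA extracts were most unequal in pair 197, with the lower one in the DMO animal. Whether that difference bears on the values was not tested. The study's design counts 10 arrays, and the tenth was not analysed here. The sources used here leave out strain, sex, age, litter and how the mothers became diabetic. Nor do they say whether the fat that surrounds the thoracic aorta was left on the vessel.

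Brown adipocytes burn fat to make heat. Noradrenaline released by sympathetic nerves acts on the beta-3 adrenergic receptor, cAMP and protein kinase A switch on lipolysis, and the fatty acids set free both fuel the mitochondria and activate uncoupling protein 1. That protein, encoded by Ucp1, lets protons return across the inner mitochondrial membrane without making ATP. The fat around the thoracic aorta of rodents is known to resemble brown fat, while that around the abdominal aorta is closer to white fat. Among the 4 genes, Adrb3 encodes the receptor at the head of this pathway, Ucp1 the uncoupling protein at its end, Cox8b a tissue-restricted subunit of cytochrome c oxidase found in brown fat and in striated muscle, and Cidea a lipid droplet protein abundant in brown fat.

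The values are log ratios, taken as log2, and their reading has limits that bear on every statement below. The base of the logarithm is not given in the sources used here, so no fold changes are given. Those sources do not say whether a positive value means higher in the DMO or in the CMO animal, so values are given with their deposited sign, and all signs would turn together. Whether the sign of the dye-swapped arrays was turned before deposit is not stated either, and the values were taken as already turned. A ratio carries no level, so neither the amount of these transcripts nor the tissue label could be checked against marker levels. Which gene a value belongs to depends on how features were numbered, a choice made from the data by the likeness of probes of the same gene, and with the deposited row number as the probe number the means of the 4 genes would lie between -0.30 and 0.040. In whole tissue, fewer cells of a type and less RNA per cell cannot be told apart.

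The start sites of the genes are shown because the 4 transcripts took large values on the same arrays. RefSeq promoter windows in the rat build GRCr8 matched 3 of the 4 genes, each with 250 bases before and 50 after the start of the gene. Capitals mark matches to the letters of short promoter elements on either strand, namely the TATA box (TATAAA), the CCAAT box (CCAAT) and the GC box (GGGCGG). Whether a match acts as such an element was not tested. The window of Ucp1 lies at chr19:41721372-41721671 on the minus strand, that of Cidea at chr18:63164567-63164866 on the plus strand and that of Cox8b at chr1:205408224-205408523 on the minus strand, all read in the direction of transcription.
Ucp1: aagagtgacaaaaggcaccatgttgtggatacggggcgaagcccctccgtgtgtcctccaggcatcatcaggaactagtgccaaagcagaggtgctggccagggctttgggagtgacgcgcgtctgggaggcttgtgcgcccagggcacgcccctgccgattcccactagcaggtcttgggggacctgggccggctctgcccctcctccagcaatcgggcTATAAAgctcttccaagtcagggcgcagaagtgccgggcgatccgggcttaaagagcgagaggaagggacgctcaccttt
Cidea: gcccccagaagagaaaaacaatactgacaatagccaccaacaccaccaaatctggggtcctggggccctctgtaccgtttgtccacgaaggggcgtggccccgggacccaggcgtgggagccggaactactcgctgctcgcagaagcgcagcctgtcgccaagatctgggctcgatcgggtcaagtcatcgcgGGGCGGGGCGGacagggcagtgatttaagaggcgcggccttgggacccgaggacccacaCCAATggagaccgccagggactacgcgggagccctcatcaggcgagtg
Cox8b: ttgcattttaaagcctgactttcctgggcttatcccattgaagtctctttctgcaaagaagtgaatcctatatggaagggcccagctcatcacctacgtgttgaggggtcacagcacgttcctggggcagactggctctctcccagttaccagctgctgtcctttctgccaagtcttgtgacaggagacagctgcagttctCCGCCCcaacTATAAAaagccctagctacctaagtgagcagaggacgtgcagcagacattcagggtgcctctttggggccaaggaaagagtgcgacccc

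A TATA box began 30 bases before the start of Ucp1 and 39 bases before that of Cox8b, and none was found in the window of Cidea. Cidea held 2 GC boxes that share a base, beginning 57 and 52 bases before the start. Its 1 CCAAT match began at base 3 of the gene, after the start, so it does not lie upstream. Cox8b also held a GC box, on the other strand and 49 bases before the start. Of 33469 rat promoter windows of this length, 14.2% held the TATA box, 33.1% the GC box and 37.5% the CCAAT box, so these letters are common. The nuclear receptor half-site bound by PPAR proteins (AGGTCA, in 16.2% of windows), the estrogen-related receptor site (TNAAGGTCA, 1.20%, which contains the former) and the cAMP response element (TGACGTCA, 1.83%) were not among the letters of the 3 windows. The enhancer through which Ucp1 is known to respond to cold lies farther upstream and outside these windows.

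The values of the 4 genes differed between the animal pairs. They lay far on the positive side in pairs 197 and 199, near 0 for pair 220, and on the negative side in pair 194, while pair 193 was mixed. A log ratio above 1 was held by 4 of the 4 genes in pairs 197 and 199, where 0.950% and 1.17% of all 19478 features were above 1. Below -1 lay 2 of the 4 genes in pair 194 and 1 for pair 193, beside 0.334% and 0.375% of all features. On the opposite sides of these pairs, where none of the 4 genes was found, lay 3.30% of features in pair 197, 0.308% for pair 199, 1.49% in pair 194 and 0.190% for pair 193. Pair 220 had 0.246% of its features above 1 and 0.252% below -1, and none of the 4 genes among them. The genes were chosen for these values, so the shares are given beside the counts and nothing is read from them.

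**Figure D1:**
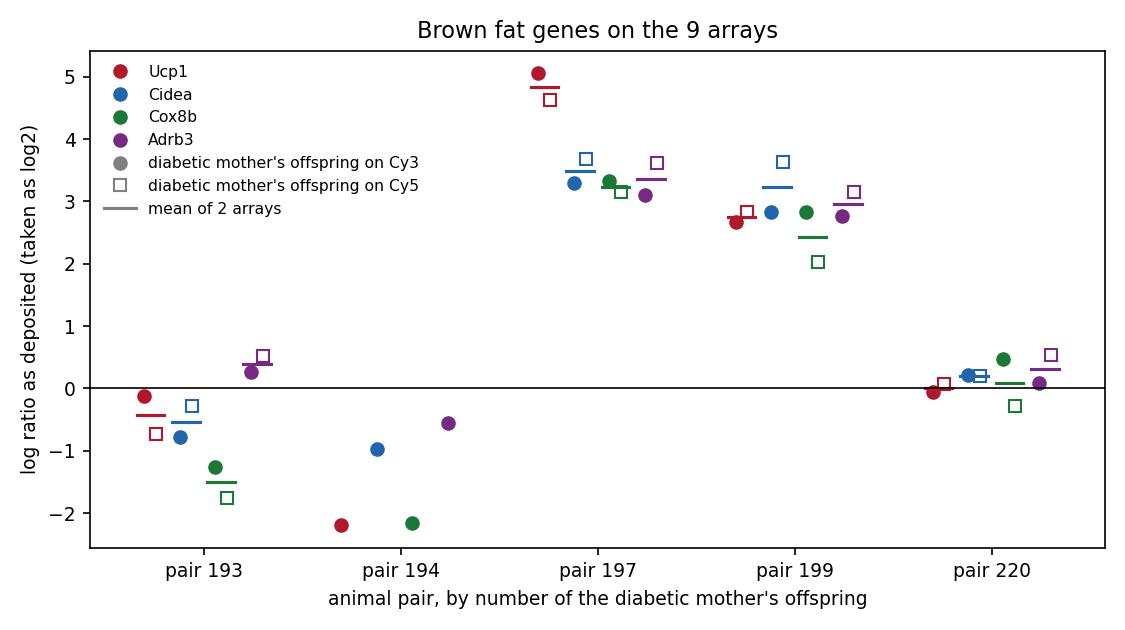
Log ratio as deposited (y axis, taken as log2) of Ucp1, Cidea, Cox8b and Adrb3 on each of the 9 arrays, by animal pair (x axis). Filled circles are arrays with the DMO animal on Cy3, open squares those with it on Cy5, and lines are the mean of the 2 arrays of a pair. The 8 gene means of pairs 197 and 199 lie between 2.43 and 4.84, those of pair 220 between 0.0098 and 0.31, and the values of pair 194 between -2.19 and -0.55.

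Adrb3, the receptor that receives the sympathetic signal, was at 3.10 and 3.61 on the 2 arrays of pair 197 and at 2.76 and 3.16 on those of pair 199, with the Cy3 orientation first here and below. It was at 0.27 and 0.52 in pair 193, 0.091 and 0.53 for pair 220, and -0.55 on the single array of pair 194. Every array other than that of pair 194 was thus positive for Adrb3. The mean over the pairs was 1.29 ± 1.75 (SD, n = 5 pairs), with a median of 0.39. Without pair 197 the mean was 0.78.

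Ucp1, which defines brown and beige adipocytes, had the widest range of the 4 genes. It was at 5.05 and 4.62 in pair 197, 2.66 and 2.83 for pair 199, -0.13 and -0.73 in pair 193, -0.049 and 0.069 for pair 220, and -2.19 in pair 194. In pair 197 it was second from the top of the 19478 features, and in pair 194 it was eighth from the bottom. Ucp1 was thus at opposite ends of the ranking in different animal pairs. Its mean was 0.995 ± 2.78 (SD, n = 5 pairs) and its median 0.0098, so the mean stands for no single pair. It was 0.035 without pair 197, 0.56 without pair 199 and 1.79 without pair 194.

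Cidea, which coats lipid droplets and is known in mice to affect their size, was at 3.30 and 3.69 in pair 197 and at 2.83 and 3.64 for pair 199. The other pairs were lower, with -0.78 and -0.28 in pair 193, 0.21 and 0.20 for pair 220, and -0.98 in pair 194. Pairs 197 and 199 were closer to each other for Cidea (means of 3.49 and 3.24) than for Ucp1 (4.84 and 2.75). Over the 5 pairs Cidea was at 1.08 ± 2.12 (SD), with a median of 0.21. The mean was 0.48 without pair 197 and 0.55 without pair 199.

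Cox8b differed from the other 3 genes in pair 193. It was at -1.26 and -1.76 there, near its -2.16 in pair 194, while Ucp1 and Cidea had means of -0.43 and -0.53 and Adrb3 of 0.39. In pairs 197 and 199 Cox8b was at 3.33 and 3.14 and at 2.83 and 2.03, the lowest mean of the 4 genes in both. In pair 220 it was at 0.48 and -0.29, on opposite sides of 0. The mean was 0.42 ± 2.37 (SD, n = 5 pairs), and it lay below 0 without pair 197 (-0.29) or without pair 199 (-0.084). It was 0.90 without pair 193 and 1.06 without pair 194.

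**Figure D2:**
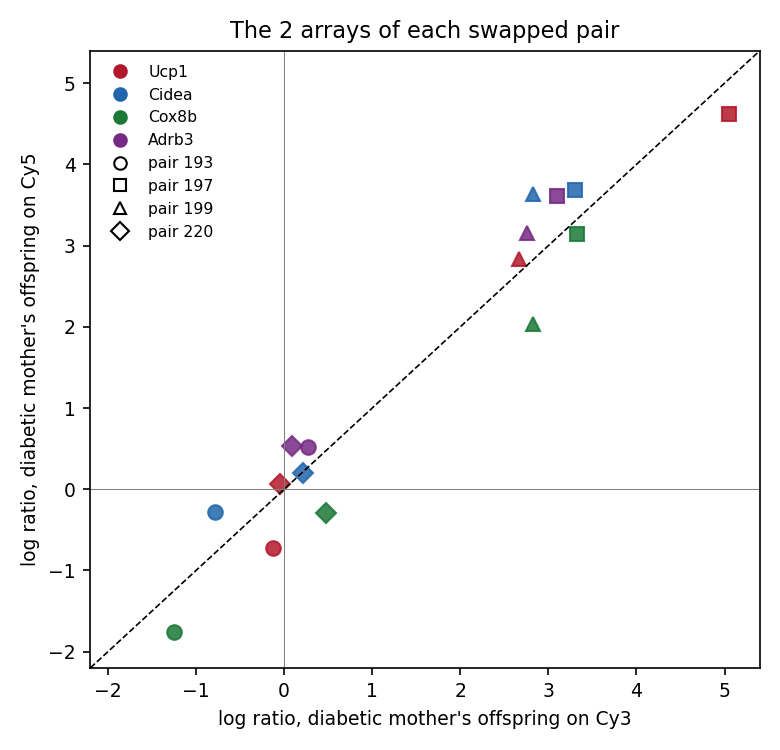
Log ratio of each of the 4 genes on the array with the DMO animal on Cy3 (x axis) against that with it on Cy5 (y axis), for the 4 pairs measured in both orientations. Colours mark genes, shapes mark pairs, and the dashed line marks equal values. The 8 points of pairs 197 and 199 lie above 2 on both axes.

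The 2 arrays of a swapped pair gave the same sign in 14 of 16 combinations of gene and pair, among them 8 of 8 in pairs 197 and 199. The exceptions were Ucp1 and Cox8b in pair 220, where both means were near 0. As a measure of array error, 0.5 of the difference between the 2 arrays was 0.22, 0.20, 0.091 and 0.26 in size in pair 197 for Ucp1, Cidea, Cox8b and Adrb3, where the SD of this quantity over all features was 0.20. In pair 199 it was 0.084, 0.40, 0.40 and 0.20, with an SD over features of 0.42. The mean of a gene was at least 6.06 times its own error in pair 199 and at least 13.1 times in pair 197. Each such error rests on 1 difference between 2 arrays, and the genes were chosen for large values. These ratios are thus only a description. In pair 220 the error for Ucp1 and Cox8b, 0.059 and 0.38, was larger than their means of 0.0098 and 0.094.

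If the Cy5 arrays had not been turned before deposit, the 2 values of a pair would largely cancel. With their sign turned, Ucp1 was at 0.22 in pair 197 and -0.084 for pair 199, Cidea at -0.20 and -0.40, Cox8b at 0.091 and 0.40, and Adrb3 at -0.26 and -0.20. The means over the 5 pairs were then -0.36 for Ucp1, -0.36 for Cidea, -0.21 for Cox8b and -0.27 for Adrb3. The sources used here do not say which reading applies, and pair 194, with 1 array, reads the same under both. Subtracting the mean dye part of the swapped pairs from pair 194 gave -2.29 for Ucp1, -0.77 for Cidea, -2.44 for Cox8b and -0.35 for Adrb3, each still negative.

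Each array set an offspring of a diabetic mother against one of a control mother, and the comparison of the groups asked whether any feature differed in 1 direction over the pairs. In limma, 0 of 19478 features (0%) had an adjusted p under 0.05, and 929 had an unadjusted p under 0.05. The lowest adjusted p was 0.926. As no feature passed, no gene of the lists below could pass. These lists were chosen with earlier results of these data known. Counts of unadjusted p under 0.05 in those lists stand beside 929 of 19478 over all features. The 4 brown fat genes were not on 1 side of 0 in all 5 pairs. Adrb3 was positive in 4 pairs, and Ucp1, Cidea and Cox8b in 3.

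Other genes of brown and beige adipocytes had medians nearer to 0 than the 4 genes in pairs 197, 199 and 194. Of 30 such genes listed, 19 were measured, and none of them passed in limma over all features (1 had an unadjusted p under 0.05). Prdm16, Dio2, Elovl3 and Ebf2 were among those not measured, so the list covers brown fat genes only in part. As the 4 genes were chosen by their values, their medians and those of the list do not compare like with like. The median of the 19 genes was 0.21 in pair 197 and -0.011 for pair 199, against medians of 0.076 and -0.041 over all features. In pair 194 it was -0.31, against -0.033 over all features, and 15 of the 19 genes were negative, the side of the 4 genes, where 55.1% of all features were negative. Only Cpt1b, which carries long-chain fatty acids into mitochondria and is also a muscle form, was above 1 in these pairs, at 3.20 and 2.33. In pair 194 it was at -0.79, the lowest of the list.

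Ffar4, a receptor for fatty acids, was at 0.58 and 0.95 in pairs 197 and 199, and Slc27a2, a fatty acid transporter, at 0.92 and 0.53. The coactivators Ppargc1a and Ppargc1b, which drive mitochondrial biogenesis and Ucp1 transcription, were at 0.023 and 0.16 in pair 197 and at -0.20 and -0.019 for pair 199. None of these 4 values was near those of Ucp1 itself. Zic1 and Lhx8, transcription factors used as markers of classical brown fat in mice, were at 0.22 and 0.15 in pair 197, -0.011 and -0.087 for pair 199, and -0.58 and -0.48 in pair 194.

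The list also held genes of fuel handling with values near 0. Fabp3, a fatty acid binding protein, was at 0.19 and -0.22 in pairs 197 and 199, Plin5, a lipid droplet protein of oxidative tissue, at 0.37 and 0.11, and Pdk4, which restrains glucose oxidation, at 0.30 and -0.062. The nuclear receptor Ppara was at 0.38 and -0.15 and the hormone gene Fgf21 at 0.18 and -0.27. Of the rest, Acot11, Clstn3, Kcnk3, Letmd1, Mpzl2, Pank1 and Slc29a1 ranged from -0.60 (Slc29a1, pair 197) to 0.54 (Letmd1, pair 199) over those 2 pairs. A feature close to background also gives a ratio near 0, and signals were not used here, so a small value does not show that a gene did not change.

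Relatives of the 4 genes were set beside them, 8 measured of 11 listed, and none passed in limma over all features (1 had an unadjusted p under 0.05). Cidec, the white fat counterpart of Cidea on the lipid droplet, was at 1.51 and 1.71 in pairs 197 and 199, but at 0.34 for pair 194, where Cidea was at -0.98. Cox8a, the form of the Cox8 subunit found in most tissues, took values of 0.59 and 1.09 in pairs 197 and 199 and of 0.62 in pair 194, where Cox8b was at -2.16. In pair 193 both Cox8 forms were negative, at -0.79 for Cox8a and -1.51 for Cox8b. Cox8a and Cox8b thus had opposite signs in pair 194 and the same sign for pairs 193, 197 and 199. In pair 220 both were near 0, at -0.067 for Cox8a and 0.094 for Cox8b.

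Ucp3, the muscle relative of Ucp1, took values of 0.46 and 0.27 in pairs 197 and 199, with -0.049 in pair 194. The brain-enriched carriers Slc25a14 and Slc25a27 were at 0.39 and 0.16 in pair 197 and at -0.015 and 0.22 for pair 199, and the related kidney carrier Slc25a30 at 0.17 and 0.054. Adrb1, the beta-1 adrenergic receptor, was at 0.37 and -0.074 in these pairs and at -0.54 in pair 194, next to -0.55 for Adrb3. Cideb, the liver relative of Cidea, was at 0.27, -0.15 and -0.43 in pairs 197, 199 and 194. These carriers and receptors kept within 0.6 of 0 in every pair, and Cidec and Cox8a were the relatives above 1 in any pair.

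Downstream of the receptor, 23 of 27 listed genes of beta adrenergic, cAMP and protein kinase A signalling were measured, none passed in limma, and 2 had an unadjusted p under 0.05. Prkar2b, the regulatory subunit of protein kinase A that predominates in adipocytes, was at 2.07 and 1.65 in pairs 197 and 199. Adcy5, an adenylyl cyclase, was at -1.87 and -0.15. Prkar1a, another regulatory subunit, was at 0.083 and 0.27 in these pairs and at 0.83 in pair 194, and Adcy7, a cyclase of immune cells, was negative in each pair, from -0.83 to -0.22. The medians of the list were 0.083 and 0.091 in pairs 197 and 199, near 0, whereas Adrb3 was at 3.36 and 2.96. Th, tyrosine hydroxylase of noradrenaline synthesis, was at -0.054 and -0.37 there, and Npy, a peptide of sympathetic nerves, at -0.019 and 0.41.

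Lipolysis and the supply of fatty acids to mitochondria, the steps between the receptor and uncoupling, held 13 of 20 measured genes above 1 in pair 197 and 11 for pair 199. Of all features, 0.950% and 1.17% were above 1 in these pairs. The list medians there were 1.55 and 1.22, with 0.10 in pair 194, -0.27 for pair 193 and -0.017 in pair 220. None of the 20 passed in limma over all features, and 2 had an unadjusted p under 0.05. G0s2, an inhibitor of adipose triglyceride lipase, was at 3.87 and 3.10, Lpl, which frees fatty acids from circulating lipoproteins, at 3.74 and 2.26, and Fabp4, the adipocyte fatty acid binding protein, at 2.86 and 2.23. In pair 194 these 3 genes were at 0.63, 0.39 and 0.10, on the other side of 0 from Ucp1. Of the 20 genes, 7 were negative there, with Cpt1b lowest at -0.79, beside 55.1% of all features. That pair had 1 array and no dye swap.

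Cox8b is a subunit of cytochrome c oxidase, the last enzyme of the respiratory chain, and 14 of 18 listed genes for other subunits, assembly factors and cytochrome c were measured. Their median was 0.55 and 0.95 in pairs 197 and 199, and -0.53 for pair 193, the lowest of the 5 pairs. Cycs, cytochrome c itself, was at 2.85, 2.13 and -1.23 in pairs 197, 199 and 193, and Cox7b at 1.88, 1.47 and -1.37. Cox5a was at 1.62, 1.52 and -1.01 and Cox4i1 at 1.67, 1.31 and -0.49. In pair 193, 4 of the 14 were below -1, as was Cox8b, beside 0.375% of all features. In pair 194 the median of the 14 was 0.16 and none was below -1, beside 0.334% of all features. None of the 14 passed in limma over all features, and 1 had an unadjusted p under 0.05.

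**Figure D3:**
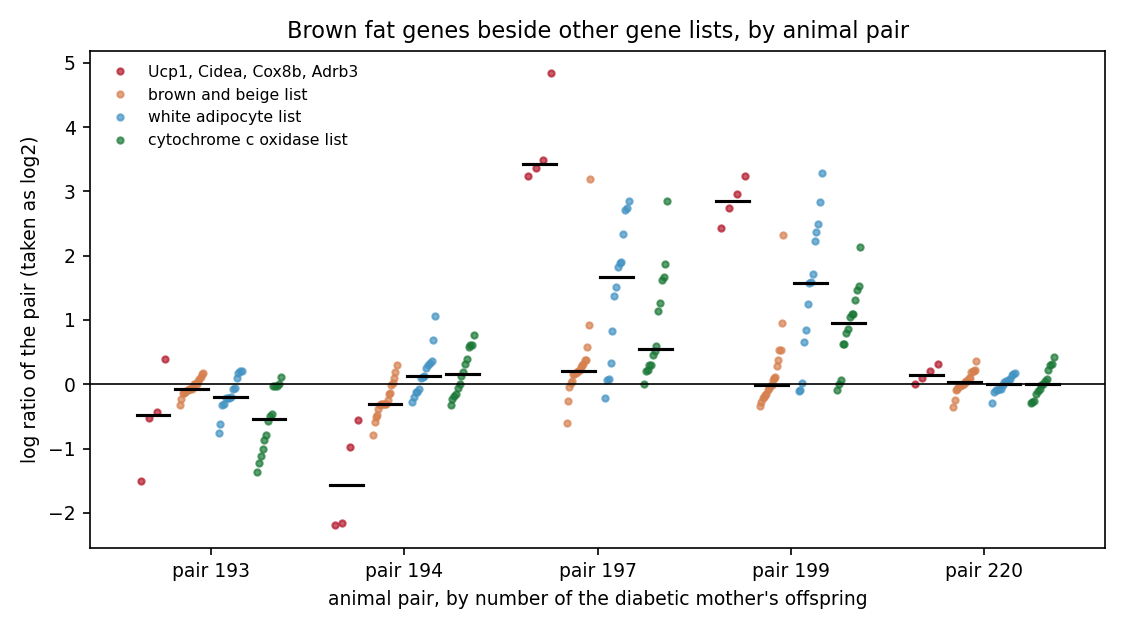
Log ratio of the pair (y axis, taken as log2) for the 4 brown fat genes, 19 other brown and beige genes, 14 white adipocyte markers and 14 genes of cytochrome c oxidase and cytochrome c, by animal pair (x axis). Points are genes and black lines are medians of a list. In pair 194 the median of the 4 genes is -1.57 and that of the white adipocyte markers 0.13.

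Heat can also be made without uncoupling protein 1, through cycles of creatine or calcium, and 10 of 12 listed genes of these routes were measured. Their medians were -0.11 and -0.12 in pairs 197 and 199 and 0.15 for pair 194. None was above 1 in the first 2 pairs. Atp2a2, the calcium pump of the sarcoplasmic reticulum that is also abundant in smooth muscle, was at -2.55 in pair 197, 0.14 for pair 199, 1.16 in pair 194, 1.03 for pair 220 and -1.11 in pair 193. Slc6a8, the creatine transporter, was at -1.35, -0.16 and 1.20 in pairs 197, 199 and 194, and Gatm and Gamt, which make creatine, were at 1.23 and 0.75 for pair 194. None passed in limma (1 had an unadjusted p under 0.05).

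The median of the listed white adipocyte markers was positive in pairs 197 and 199, as were the brown fat genes. In pair 194 that median was not negative, unlike the brown fat genes. Of 19 listed, 14 were measured, and their medians were 1.67 and 1.58 in pairs 197 and 199, where the 4 brown fat genes had medians of 3.43 and 2.85. Adipoq, the adipocyte hormone adiponectin, was at 2.71 and 3.28 and Fasn, fatty acid synthase, at 1.89 and 2.50. Lep and Npr3 of the same list stayed near 0 in these pairs, at 0.081 and -0.098 and at 0.063 and 0.020. Fabp4, Gpd1 and Dgat2 of this list are also among the 10 genes most like the 4 brown fat genes, given below. How far the listed genes are particular to white fat was not tested, so the list is not read as a measure of white fat alone. In pair 194 the white marker median was 0.13, with Cfd (adipsin) at 1.06 and Fasn at 0.69. Of the 14 genes, 9 were above 0 and 5 below, where 55.1% of all features were below 0. The 4 brown fat genes were all below 0 in that pair, with a median of -1.57. The medians of the 4 genes and of the white markers differed by 1.76 in pair 197, 1.27 for pair 199, -1.69 in pair 194, -0.27 for pair 193 and 0.14 in pair 220. None of the white markers passed in limma over all features, and 3 had an unadjusted p under 0.05, beside 929 of 19478 features.

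Striated muscle also expresses Cox8b and Cpt1b, so its markers were set beside them. Of 16 skeletal muscle markers 8 were measured, of 10 heart muscle markers 7, and none of either list was above 1 in any pair. The skeletal muscle medians lay between -0.27 and 0.075 over the 5 pairs and the heart muscle medians between -0.29 and 0.094. Atp2a1 (the calcium pump of fast fibres), Casq1 (calsequestrin) and Actn3 (fast fibre alpha-actinin) were at 0.15, 0.13 and 0.064 in pair 197, whereas Ckm, muscle creatine kinase, was at -2.21 and Actc1, cardiac actin, at -1.73.

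Markers of the vessel wall and of other cells also differed between the pairs. Of 11 smooth muscle markers 8 were measured, with a median of -0.80 in pair 197, -0.60 for pair 193 and between -0.081 and 0.11 in the other 3. Des (desmin) was at -2.32 in pair 197, 0.94 for pair 199 and -0.97 in pair 193. Itga8, an integrin subunit of smooth muscle, was at -2.25, -0.18 and -1.58 in these pairs. Endothelial medians, over 7 of 8 genes, were 0.43 in pair 197 and from -0.13 to 0.22 in the others. Of 12 sympathetic neuron and Schwann cell markers 8 were measured, with medians from -0.098 to 0.043. In pair 194 the Schwann cell genes Pmp22 and Sox10 were at 3.77 and 1.15. Below 0 in that pair lay 5 of these 8 genes, beside 55.1% of all features. Leukocyte medians, over 8 of 8 genes, lay between -0.17 and 0.14. None of the genes of these muscle, vessel, nerve and leukocyte lists passed in limma over all features, and 1 endothelial and 1 nerve gene had an unadjusted p under 0.05. The part of any of these cell types in the values of the 4 genes was not tested.

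The 10 genes whose log ratios were most like the mean of the 4 brown fat genes were sought among 755 genes that reached 1 in size in some pair. Pearson's r was from 0.957 to 0.992, a description over 9 arrays that share 5 animal pairs and in which pairs 197 and 199 hold the largest values. Cpt1b was first (r = 0.992). Nfia, a transcription factor that in mice is known to act on brown fat genes, followed (r = 0.975), at 1.70 and 1.42 in pairs 197 and 199 and at -1.08 for pair 194. It was the 1 gene of the 10 below -1 in pair 194, where 0.334% of all features were.

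Pck1, which makes glycerol backbones for triglyceride in fat and glucose in liver, was at 5.28 in pair 197, 3.28 for pair 199 and -0.76 in pair 194. Glycerol-3-phosphate dehydrogenase Gpd1 was at 2.34 and 1.59 in pairs 197 and 199 and Dgat2, which completes triglyceride synthesis, at 1.90 and 1.58. Mitochondrial fuel use was represented by Etfa, an electron carrier of fatty acid oxidation (2.73 and 2.39), and by Cs, citrate synthase (1.66 and 1.41). Fabp4 (2.86 and 2.23), Acsl1, which activates fatty acids (1.40 and 1.20), and Cav1, a caveola protein abundant in adipocytes and endothelium (1.11 and 0.73), completed the 10. In pair 194, where 55.1% of all features were negative, 9 of these 10 genes were negative, and Fabp4 was at 0.10. The 10 genes were picked for their likeness over arrays that include this one, so nothing is read from that count.

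**Figure D4:**
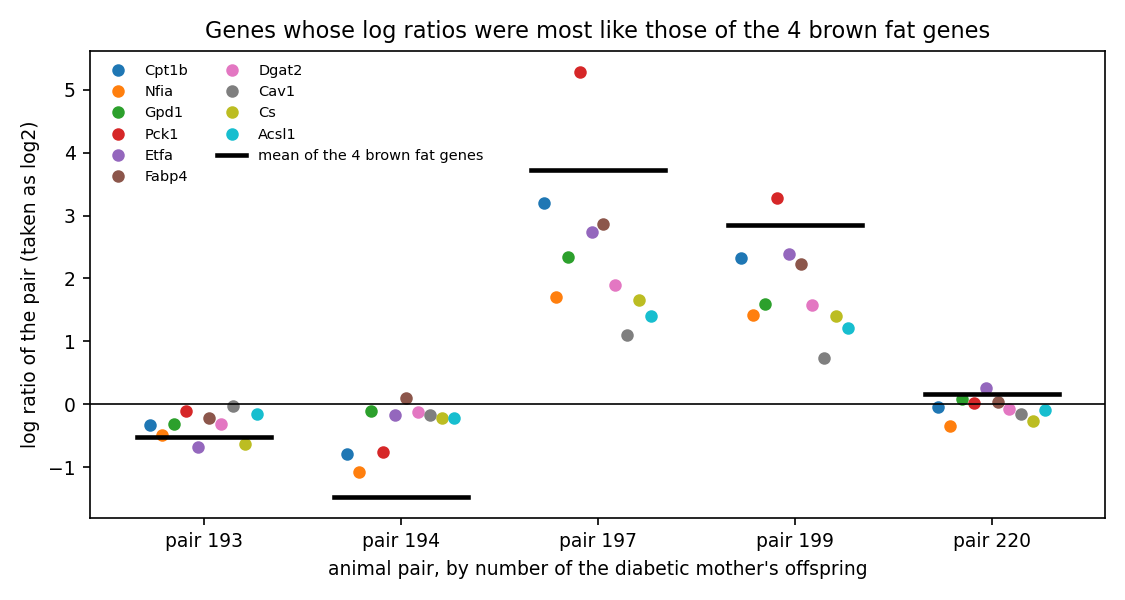
Log ratio of the pair (y axis, taken as log2) of the 10 genes most like the 4 brown fat genes, by animal pair (x axis). Points are genes, and black lines are the mean of the 4 brown fat genes, which was -0.52, -1.47, 3.73, 2.84 and 0.16 in pairs 193, 194, 197, 199 and 220. Pck1 lies highest, at 5.28 in pair 197.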

How the data were processed

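Total RNA of thoracic aorta was extracted with Trizol and labelled as cRNA with Cy3 and Cy5, per the labels. The deposited table holds 1 log ratio for each of 22575 features on 9 arrays, taken as log2. How the authors scanned, corrected and normalized the arrays is not given in the sources used here. Every array had a mean of 0 in the deposited log2 values (at most 3.4e-07 in size), and medians lay between -0.057 and 0.088. All arrays carry 1 date. With no signals, dim features and control spots could not be left out. Precision is limited by the small number of arrays.

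Features were named with the platform's annotation, in which 12750 features have 1 symbol, 5 have several and 9820 have none. Gene IDs of 12720 features matched RefSeq, and 0 symbols changed. The numbering of the features was chosen after seeing the data: probe i was taken from row 105 x (214 - (i - 1) mod 215) + 105 - floor((i - 1) / 215). For pairs of probes of 1 gene that both exceeded 1 in size, r over the 5 animal pairs had a median of 0.956 (54 probe pairs), against 0.278 with the deposited row number as the probe number (28 probe pairs).

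The 2 arrays of a swapped pair hold the same RNA extracts and were averaged into 1 replicate, and probes of a gene were averaged, which left 19478 features. Pairs were tested against 0 with limma 3.58.1 in R 4.3.3 (lmFit, eBayes), with Benjamini-Hochberg adjustment over all features. The p-values measure the spread between 5 pairs whose litters are unknown. The 4 genes and all lists were chosen with earlier results of these data known. Named genes are the 4 genes, all measured relatives and brown or beige genes, the 4 genes farthest from 0 in any pair of each list, and the 10 most alike among genes reaching 1 in size in some pair. Rps23, Lep and Npr3 are named beyond this rule, as are Prdm16, Dio2, Elovl3 and Ebf2, which were not measured. Alternatives are given in the closing section.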

Additional observations from a re-analysis of the deposited data

Results flagged for a closer look

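Among 81 named genes, 8 had 1 animal pair far from the other 4, measured by the gap to the nearest pair over the whole range. For genes taken without regard to their values, chance gives such a pair in about 1 of 20, but most of these genes were named for a value far from 0 in some pair, so that rate is no measure for them. In pair 194 these were Pmp22 (3.77), Gatm (1.23), Sox10 (1.15), Actn3 (-0.62) and Zic1 (-0.58), on an array with no dye swap. In pair 197 it was Ckm (-2.21), in pair 199 Letmd1 (0.54) and in pair 193 Lyz2 (1.18). None of Ucp1, Cidea, Cox8b and Adrb3 had such a pair.

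Nppa, the gene of atrial natriuretic peptide and a heart marker, was positive on the 5 arrays where the DMO animal carried Cy3 (0.044 to 0.56) and negative on the 4 where it carried Cy5 (-1.13 to -0.12). The means of the 2 orientations differed by 0.83, and this difference was not tested.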

How the results depend on the processing

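The count of features past the threshold was 0 in limma under every alternative run but 1: without moderation of the variance it was 1, the ribosomal protein gene Rps23, named after its value was seen. In the fit over the 9 arrays with the pair as a replicate block it was 0. The means were then 1.32 for Ucp1, 1.29 for Cidea, 0.68 for Cox8b and 1.48 for Adrb3. The consensus correlation of arrays of 1 pair in that fit was 0.08, so they counted almost as separate replicates. Each of 52 values of the means of the 4 genes under the alternatives lay within 1 SD over the pairs of the reported mean, but that SD is large. All 4 means were negative once the Cy5 arrays were turned. Leaving out 1 pair gave 0.035 to 1.79 for Ucp1, 0.48 to 1.60 for Cidea, -0.29 to 1.06 for Cox8b and 0.78 to 1.76 for Adrb3, lowest without pair 197 and highest without pair 194. With arrays scaled to 1 median absolute deviation, Cox8b was at 0.086 and Ucp1 at 0.70. Taking the deposited row number as the probe number, an alternative added after seeing the data, put all 4 means between -0.30 and 0.040. Under the alternatives, 139 values of list medians moved by less than 1 SD and 4 by more: heart muscle markers, at -0.022, were at 0.18 with the Cy5 arrays turned, 0.19 on the Cy3 arrays alone and -0.27 on the Cy5 arrays alone, and sympathetic neuron and Schwann cell markers, at -0.027, were at 0.038 on the Cy5 arrays alone. The cause was not tested. Each of the 4 genes has 1 probe, so separate probes gave no other value.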
